A study of Mus musculus with 9 samples.

Results

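Chemokines are the secreted or membrane-tethered proteins that steer white blood cells, and vascular adhesion molecules are the surface proteins by which a vessel wall holds those cells. Their RNA was examined here for 10 genes taken by symbol from the deposited count table, which lists 26683 genes: the chemokines Ccl2, Ccl3, Ccl4, Cxcl10, Cxcl12, Cxcl16 and Cx3cl1, and the adhesion molecules Icam1, Vcam1 and Selp. All 10 symbols were in the table. Bulk RNA sequencing covered 9 mouse retina libraries collected at postnatal day 17, 3 in each of 3 groups. The PCC1/PHCF Gel group (Gel) was taken from OIR mice (OIR, oxygen-induced retinopathy), injected into the vitreous at postnatal day 15 with a hydrogel that releases procyanidin C1 (PCC1), a plant polyphenol described by the series title as senolytic. The PBS group came from OIR mice injected at the same age with phosphate-buffered saline. In OIR, young mice first breathe high oxygen, which stops and prunes the growing retinal vessels, and after the return to room air abnormal vessels sprout from the retina. The Normoxic group had no OIR, and the labels do not say whether it was injected. Gel and PBS retinas share the OIR history, and none of the groups analysed here had a hydrogel without PCC1, so the compound and its carrier cannot be told apart. The sources used here give neither strain nor sex, and all 9 libraries carry the same batch label. The labels do not tie the replicates to separate animals, so each p-value measures only the spread between these samples.

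An inflamed vessel captures white blood cells in steps. Selectins such as P-selectin, the product of Selp, slow the passing cell, chemokines displayed on the endothelium switch on its integrins, and the integrins then grip ICAM-1 and VCAM-1 so that the cell stops and crosses the wall. In the retina, arrest of leukocytes on ICAM-1 is a known feature of diabetic and ischaemic vessel disease, and fractalkine, the product of Cx3cl1, is a neuronal signal that microglia read through the receptor Cx3cr1. Many inducible members of both families carry binding sites of the transcription factor NF-kB near their start, and Cxcl10 is also a classical target of interferons. In bulk RNA, a change in the number of cells of a type and a change in RNA per cell cannot be told apart.

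Promoter sequences are shown for Icam1, called in both comparisons with Normoxic, and for Cxcl10, which had the largest difference between Gel and PBS among the members tested. RefSeq promoters of 300 bases around the transcription start (build GRCm38.p6) matched 6 of the 10 members by symbol. The Cxcl10 promoter lies at chr5:92348840-92349139 on the minus strand and the Icam1 promoter at chr9:21015690-21015989 on the plus strand, both read 5′ to 3′ with base 1 farthest upstream. In Cxcl10 the capitals mark an interferon response core (GAAA, then NN, then GAAA) at bases 38 to 47 and matches of the NF-kB consensus at bases 92 to 101 and 147 to 157. In Icam1 they mark the run GGAAATTCC at bases 98 to 106, a motif that was added to the search after the sequence had been seen.
Cxcl10: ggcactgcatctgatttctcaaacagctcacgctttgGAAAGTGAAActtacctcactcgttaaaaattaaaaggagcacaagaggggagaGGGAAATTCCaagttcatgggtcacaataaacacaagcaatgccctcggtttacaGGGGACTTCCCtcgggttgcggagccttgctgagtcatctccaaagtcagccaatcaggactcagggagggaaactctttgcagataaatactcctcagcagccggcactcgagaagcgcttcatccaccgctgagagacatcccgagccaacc
Icam1: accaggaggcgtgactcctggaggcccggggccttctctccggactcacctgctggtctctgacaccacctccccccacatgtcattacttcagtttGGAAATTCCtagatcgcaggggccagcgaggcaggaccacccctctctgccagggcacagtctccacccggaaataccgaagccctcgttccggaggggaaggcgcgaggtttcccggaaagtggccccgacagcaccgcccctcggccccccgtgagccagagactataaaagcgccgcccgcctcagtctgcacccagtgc
Both strands were searched, and the 4 NF-kB matches in Cxcl10 include 3 that overlap one another at bases 147 to 157. GGAAATTCC also occurs in Cxcl10, inside the first NF-kB match. The NF-kB consensus was found in 1 of the 6 member promoters, the interferon core in 1 and GGAAATTCC in 2. Among 32851 RefSeq promoters of the same length, 8.46% held the NF-kB consensus, 3.44% the interferon core and 0.317% GGAAATTCC. Since GGAAATTCC was added after the Icam1 sequence had been seen, its count cannot be weighed against that share. These matches describe the letters of the sequence only.

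The libraries held between 29324142 and 35663470 counts each, so 1 CPM (a count scaled to a library total of 1e+06) rested on 29.3 to 35.7 counts. A low-count filter kept 17362 genes (65.1%), for which a gene needed about 0.319 CPM in at least 3 libraries. Of the members, 7 were kept (Ccl3, Cxcl10, Cxcl12, Cxcl16, Cx3cl1, Icam1 and Vcam1), and Ccl2, Ccl4 and Selp had too few counts for the test. Ccl3 was kept through exactly 3 libraries, PBS 1, PBS 3 and Gel 1, and no Normoxic library reached the limit. Cxcl10 reached it in 6 libraries and the other 5 members in all 9. Markers of the retina were present throughout, with rod photoreceptor markers summing to 53734 to 75311 CPM over the 9 libraries. Pigment epithelium markers, from the layer next to the retina, summed to 108 to 172 CPM in Gel, 44.1 to 163 CPM in PBS and 20.3 to 66.1 CPM in Normoxic. Libraries of a group differed in how their counts varied with gene length, with a Spearman correlation across genes of -0.485 in PBS 3 and 0.41 in PBS 2 between length and the deviation from the group (a description, since genes are not independent).

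Icam1 rose in PBS retinas relative to Normoxic, and 0 members fell. Ccl3 was called higher too, but it entered the test only through OIR libraries. Such entry favours a difference, so the Ccl3 call is given as a description. The edgeR quasi-likelihood test covered 7 members, and over all tested genes 6.34% were called (4.31% higher and 2.03% lower). Of the 250 genes kept with no Normoxic library at the filter limit, as Ccl3 was, 79 were among the 748 called higher. In Gel versus Normoxic, Icam1 rose, 1 of 7, where 1.41% of all tested genes were called (1.12% higher and 0.288% lower). Gel and PBS did not separate any member past the threshold: edgeR called 0 of 7 members and 0% of all tested genes, while 2 members, Cxcl10 and Vcam1, and 5.54% of all tested genes had an unadjusted p under 0.05. In that comparison DESeq2 called 64 genes and limma-voom 0, and neither called a member. The CPM of 2 members lay above the Normoxic range without overlap in PBS and in Gel (Icam1 and Ccl3), and those of 2 lay below it in both (Cxcl12 and Cx3cl1). Among all tested genes, 29.0% did not overlap in PBS versus Normoxic (14.9% wholly above, 14.1% wholly below) and 23.9% did not in Gel versus Normoxic (11.1% above, 12.8% below). Between Gel and PBS, Cxcl10 alone among the tested members lay wholly below, against 7.89% of all tested genes that did not overlap (5.15% wholly below and 2.73% wholly above). The median log2 fold change of the tested members was 0.08 in PBS versus Normoxic (0.0098 over all genes), -0.05 in Gel versus PBS (-0.0118 over all genes) and 0.08 in Gel versus Normoxic (0.0007 over all genes). The comparisons with Normoxic share the same 3 libraries.

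**Figure D1:**
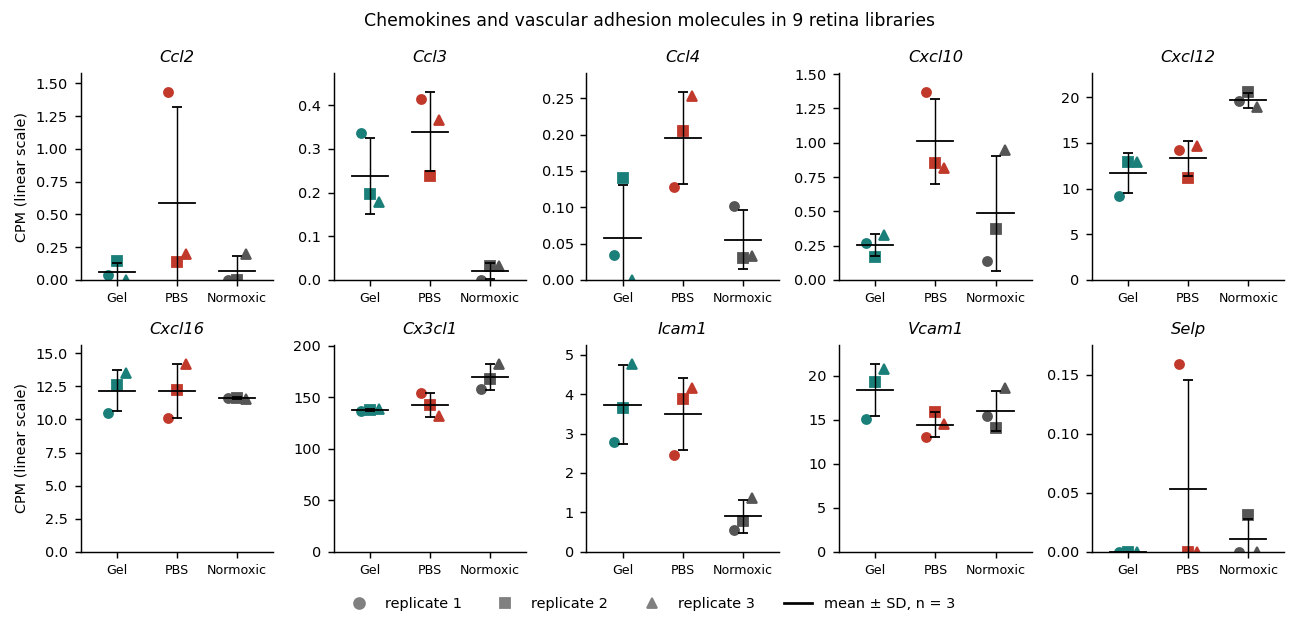
CPM of the 10 genes in each library (linear axis, CPM), with Gel left of PBS and Normoxic; symbols are replicates, horizontal lines means and bars SD (n = 3, cut at 0). Icam1 averaged 3.74 CPM in Gel, 3.50 CPM in PBS and 0.896 CPM in Normoxic, and the single high Ccl2 and Selp points belong to PBS 1.

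Icam1 (Entrez 15894), the ligand of the leukocyte integrins LFA-1 and Mac-1, had 2.79, 3.65 and 4.78 CPM in Gel 1 to 3, 2.45, 3.88 and 4.16 CPM in PBS 1 to 3, and 0.546, 0.769 and 1.37 CPM in Normoxic 1 to 3. Every Gel and PBS library lay above every Normoxic library, while Gel and PBS overlapped, with PBS 1 below and Gel 3 above the other group. The underlying counts ran from 83 to 161 in Gel, from 77 to 148 in PBS and from 16 to 42 in Normoxic. The increase was 3.92-fold in PBS versus Normoxic (log2 fold change 1.97 ± 0.37 SE, 95% interval 1.15 to 2.79, edgeR adjusted p = 0.0108) and 4.18-fold in Gel versus Normoxic (2.06 ± 0.37, 1.24 to 2.88, edgeR adjusted p = 0.0235). Gel and PBS differed by a log2 value of 0.09 with an interval of -0.65 to 0.84 (edgeR adjusted p = 0.987), which leaves room for a change of either sign. Both calls ended when single libraries were left out: the edgeR adjusted p of PBS versus Normoxic reached 0.0604 without Normoxic 1 or Normoxic 2, and that of Gel versus Normoxic reached 0.139 without Normoxic 1, Normoxic 2, Gel 2 or Gel 3. The log2 fold change of PBS versus Normoxic stayed between 1.71 and 2.42 whichever library was left out.

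Icam1 was also set against the RNA of the cells that display it. The 14 endothelial markers were all detected in every group and summed to 521 to 537 CPM in Gel, 472 to 546 CPM in PBS and 416 to 474 CPM in Normoxic. Per 1000 endothelial marker counts, Icam1 had 5.30, 6.995 and 8.89 counts in Gel 1 to 3, 5.19, 7.55 and 7.63 in PBS 1 to 3, and 1.31, 1.81 and 2.90 in Normoxic 1 to 3. On this scale the OIR libraries lay above the Normoxic ones without overlap. Kdr, which fell in PBS versus Normoxic, made up 23.7% to 46% of these sums, and without it Icam1 had 8.06 to 12.9 counts per 1000 in Gel, 7.40 to 10.8 in PBS and 2.42 to 5.37 in Normoxic. Microglia also make ICAM-1, and their 11 markers summed to 124 to 170 CPM in Gel, 168 to 267 CPM in PBS and 65.0 to 76.0 CPM in Normoxic, with none at 0. Per 1000 microglia marker counts, Icam1 had 22.5, 21.4 and 28.5 counts in Gel 1 to 3, 14.6, 22.3 and 15.6 in PBS 1 to 3, and 8.40, 11.2 and 18.0 in Normoxic 1 to 3. On that scale PBS overlapped Normoxic, since Normoxic 3 exceeded PBS 1 and PBS 3, and Gel did not. The part of either cell type in the Icam1 increase was not tested.

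Vcam1 (Entrez 22329), the ligand of the integrin VLA-4, did not separate the 3 groups by CPM. Its values were 15.05, 19.3 and 20.8 CPM in Gel 1 to 3, 12.998, 15.9 and 14.5 CPM in PBS 1 to 3, and 15.4, 14.1 and 18.6 CPM in Normoxic 1 to 3. All 3 groups overlapped, with Gel 2 and Gel 3 highest. The log2 fold change was 0.35 ± 0.16 in Gel versus PBS (interval 0.0004 to 0.70, edgeR adjusted p = 0.903), -0.14 ± 0.16 in PBS versus Normoxic (edgeR adjusted p = 0.629) and 0.21 ± 0.16 in Gel versus Normoxic (edgeR adjusted p = 0.618). Per 1000 endothelial marker counts, Vcam1 had 28.6, 37.1 and 38.7 counts in Gel 1 to 3. PBS 1 to 3 had 27.5, 30.9 and 26.5, and Normoxic 1 to 3 had 37.1, 33.2 and 39.2. On this scale PBS lay wholly below Normoxic and Gel overlapped both. Without Kdr the ratios were 43.4 to 56.1 in Gel, 34.8 to 44.2 in PBS and 59.5 to 72.7 in Normoxic. Per 1000 microglia marker counts they were 113 to 124, 54.4 to 91.0 and 205 to 245. The marker sums differed between groups too, and their part was not tested. Selp (Entrez 20344), the selectin that endothelial cells and platelets store in granules, had 0 counts in all 3 Gel libraries, 5 counts in PBS 1 and 0 in PBS 2 and PBS 3, and 1 count in Normoxic 2 alone. A count of 0 over the Gel group allows up to 0.0303 CPM. The ratio of Gel over PBS had a counting interval of 0 to 1.06, and all PBS counts sat in 1 library, so no difference in Selp was detectable at this depth. Of the 3 adhesion molecules, then, the integrin ligand Icam1 differed from Normoxic in both OIR groups, Vcam1 did not pass the test, and P-selectin RNA was near the limit of detection.

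Of the inducible chemokines, Ccl3 (Entrez 20302), which draws monocytes and other leukocytes, had 10, 7 and 6 counts in Gel 1 to 3, 13, 7 and 13 counts in PBS 1 to 3, and 0, 1 and 1 counts in Normoxic 1 to 3. All OIR libraries exceeded all Normoxic libraries, and Gel overlapped PBS at the lower end. The summed counts gave a ratio of 15.8 for PBS over Normoxic, with a counting interval of 4.05 to 136, and of 10.7 for Gel over Normoxic, with an interval of 2.65 to 93.9 (95%, counting error only). By edgeR the log2 fold change was 3.77 ± 0.75 in PBS versus Normoxic (adjusted p = 0.0142) and 3.23 ± 0.78 in Gel versus Normoxic (adjusted p = 0.0777). Because Normoxic held 2 counts in all, these fitted sizes depend on the small count that edgeR adds. The PBS call ended without any 1 Normoxic library (edgeR adjusted p up to 0.0616), and Ccl3 was removed by the filter when only the PBS and Normoxic libraries were used. Gel and PBS differed by -0.54 ± 0.52, with an interval of -1.68 to 0.61 (edgeR adjusted p = 0.987).

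Cxcl10 (Entrez 15945), the interferon-induced chemokine that draws activated T cells through Cxcr3, had 8, 6 and 11 counts in Gel 1 to 3, 43, 25 and 29 counts in PBS 1 to 3, and 4, 12 and 29 counts in Normoxic 1 to 3. As levels, these averaged 0.255 ± 0.0800 CPM (SD, n = 3 in each group) in Gel, 1.01 ± 0.310 CPM in PBS and 0.484 ± 0.417 CPM in Normoxic. Every Gel library lay below every PBS library, while Normoxic spread across both groups and Normoxic 3 reached the PBS range. The log2 fold change of Gel versus PBS was -1.98 ± 0.61 (interval -3.32 to -0.64), which did not pass the test over all genes (edgeR adjusted p = 0.65). It ran from -2.19 to -1.71 with 1 library left out, and the adjusted p ran from 0.43 to 1 over the alternatives. PBS versus Normoxic gave 1.06 ± 0.57 (edgeR adjusted p = 0.315). That value moved with the Normoxic libraries: without Normoxic 3 the log2 fold change was 1.98, and without Normoxic 1 it was 0.62, neither past the threshold (edgeR adjusted p between 0.115 and 0.575). Gel versus Normoxic gave -0.92 (edgeR adjusted p = 0.584), and 0.0021 without Normoxic 3.

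The response genes of interferon were read beside Cxcl10, whose promoter printed above holds the interferon core. Of 16 tested interferon response genes, 14 rose and 0 fell in PBS versus Normoxic, where 4.31% of all tested genes were higher. The list's median log2 fold change was 1.70. In Gel versus PBS edgeR called 0 of the 16. All 16 had a negative log2 fold change, with a median of -0.67. The CPM of 11 lay wholly below PBS, against 5.15% of all tested genes. Gel versus Normoxic also gave 0 calls among the 16, with a median of 0.955. There all 16 log2 fold changes were positive. The CPM of 10 lay wholly above Normoxic, against 11.1% of all tested genes. The summed CPM of the list was 304, 451 and 358 in Gel 1 to 3, 697, 565 and 481 in PBS 1 to 3, and 307, 293 and 182 in Normoxic 1 to 3. PBS was wholly above the other groups, and Normoxic 3 was the lowest of all libraries on this list although it had the most Cxcl10 of its group. Ifit1, an RNA-binding antiviral protein, had 7.34, 14.4 and 11.95 CPM in Gel, 26.0, 22.3 and 17.3 CPM in PBS, and 7.06, 5.45 and 2.74 CPM in Normoxic. It rose in PBS versus Normoxic (log2 fold change 2.11 ± 0.33, edgeR adjusted p = 0.00402), as did the guanylate-binding protein Gbp2 (1.89 ± 0.30, edgeR adjusted p = 0.00495).

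Ccl2 (Entrez 20296), the main attractant of Ccr2-bearing monocytes, had 1, 5 and 0 counts in Gel 1 to 3, 45, 4 and 7 counts in PBS 1 to 3, and 0, 0 and 6 counts in Normoxic 1 to 3. PBS 1 held 80.4% of the PBS counts, and the next highest libraries were PBS 3, Normoxic 3 and Gel 2, with 5 to 7 counts. The ratio of summed counts was 8.96 for PBS over Normoxic (95% counting interval 3.87 to 25.5) and 0.104 for Gel over PBS (0.0367 to 0.241), intervals that cover counting error and not the spread between the PBS libraries. With no filter on low counts, edgeR gave an adjusted p of 0.147 for PBS versus Normoxic and 0.664 for Gel versus PBS. Ccl4 (Entrez 20303), a close relative of Ccl3 that draws similar cells, had 1, 5 and 0 counts in Gel 1 to 3, 4, 6 and 9 counts in PBS 1 to 3, and 3, 1 and 1 counts in Normoxic 1 to 3. Its CPM in PBS lay above Normoxic without overlap, and Gel overlapped both. The count ratio was 3.65 for PBS over Normoxic (1.32 to 12.5) and 0.307 for Gel over PBS (0.100 to 0.799), and with no filter the edgeR adjusted p of PBS versus Normoxic was 0.44. For all 4 inducible chemokines the counts were below 50 in every library, so their levels carry wide counting error.

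**Figure D2:**
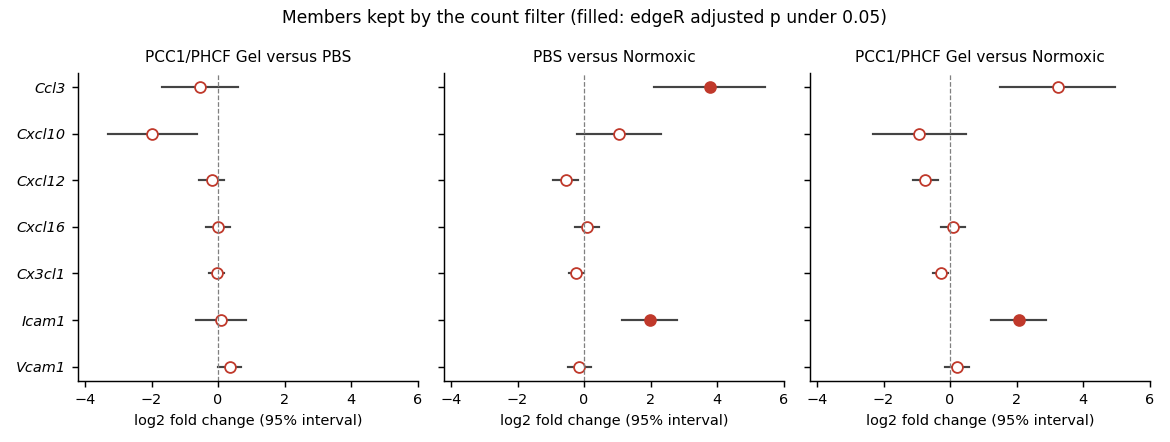
Log2 fold change (horizontal axis, linear in log2 units) with its 95% interval for the 7 tested members in Gel versus PBS, PBS versus Normoxic and Gel versus Normoxic; filled points have an edgeR adjusted p under 0.05. The filled points are Icam1 and Ccl3 in PBS versus Normoxic and Icam1 in Gel versus Normoxic, and the interval of Cxcl10 in Gel versus PBS runs from -3.32 to -0.64.

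The constitutive chemokines were far more abundant. Cxcl12 (Entrez 20315), which retains Cxcr4-bearing cells and guides vessel growth, had 9.16, 12.95 and 12.96 CPM in Gel 1 to 3, 14.2, 11.1 and 14.7 CPM in PBS 1 to 3, and 19.6, 20.6 and 18.9 CPM in Normoxic 1 to 3. Every OIR library lay below every Normoxic library, and Gel 1 was lowest. The log2 fold change was -0.74 ± 0.17 in Gel versus Normoxic (edgeR adjusted p = 0.0677) and -0.55 ± 0.17 in PBS versus Normoxic (edgeR adjusted p = 0.089). Neither passed the threshold with all 9 libraries, and both lay close enough for the processing to decide. Cxcl12 was called lower in PBS versus Normoxic by DESeq2, without PBS 3 and without Gel 1 (adjusted p between 0.03 and 0.251 over the alternatives). In Gel versus Normoxic it was called lower by DESeq2, with no filter, with only those 2 groups and without PBS 3 (0.00316 to 0.252). Gel versus PBS gave -0.19 ± 0.17 (edgeR adjusted p = 0.987). Set against endothelial markers, Cxcl12 had 17.4, 24.9 and 24.1 counts per 1000 marker counts in Gel 1 to 3, 30.1, 21.6 and 26.9 in PBS 1 to 3, and 47.1, 48.4 and 40.0 in Normoxic 1 to 3.

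Cx3cl1 (Entrez 20312), the membrane-tethered fractalkine of neurons, was the most abundant member. It had 137, 138 and 139 CPM in Gel 1 to 3, 154, 142 and 131 CPM in PBS 1 to 3, and 158, 168 and 183 CPM in Normoxic 1 to 3. The OIR libraries all lay below the Normoxic ones, by a small step, and the Gel libraries were close together. The log2 fold change was -0.29 ± 0.10 in Gel versus Normoxic (edgeR adjusted p = 0.222) and -0.24 ± 0.10 in PBS versus Normoxic (edgeR adjusted p = 0.196), neither past the threshold. Gel versus PBS gave -0.05 ± 0.10, with an interval of -0.27 to 0.18. Cxcl16 (Entrez 66102), a tethered chemokine that also takes up oxidised lipid and signals through Cxcr6, had 10.5, 12.6 and 13.5 CPM in Gel 1 to 3, 10.1, 12.2 and 14.2 CPM in PBS 1 to 3, and 11.7, 11.7 and 11.6 CPM in Normoxic 1 to 3. The groups overlapped, with the Normoxic values inside the spread of both OIR groups. Its log2 fold change was 0.08 in both comparisons with Normoxic (edgeR adjusted p of 0.795 and 0.866, interval -0.27 to 0.43 in each). Between Gel and PBS the interval was -0.36 to 0.36.

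Per length, the 7 tested members were led by the constitutive genes. In FPKM, which divides the count by gene length and library total, the mean level in Gel was 43.9 for Cx3cl1, 8.17 for Cxcl16, 5.41 for Vcam1, 1.63 for Cxcl12, 1.45 for Icam1, 0.29995 for Ccl3 and 0.231 for Cxcl10. In PBS it was 45.3 for Cx3cl1, 8.15 for Cxcl16, 4.25 for Vcam1, 1.86 for Cxcl12, 1.36 for Icam1, 0.920 for Cxcl10 and 0.430 for Ccl3. In Normoxic it was 53.9 for Cx3cl1, 7.79 for Cxcl16, 4.72 for Vcam1, 2.75 for Cxcl12, 0.440 for Cxcl10, 0.348 for Icam1 and 0.0268 for Ccl3. Of the members with too few counts for the test, Ccl2 averaged 0.0719 FPKM in Gel, 0.731 in PBS, mostly from PBS 1, and 0.0810 in Normoxic, Ccl4 averaged 0.0878 in Gel, 0.296 in PBS and 0.0837 in Normoxic, and Selp averaged at most 0.0154 in any group. In both OIR groups the libraries of Icam1 and Cxcl12 overlapped per length, while in Normoxic the highest Icam1 library had 0.532 FPKM and the lowest Cxcl12 library 2.65 FPKM. Icam1 and Cxcl10 overlapped in PBS and in Normoxic, and not in Gel, where the highest Cxcl10 library had 0.296 FPKM and the lowest Icam1 library 1.08 FPKM.

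The receptors and leukocyte partners of the members were examined next. Of 14 tested genes in that list, 5 rose and 0 fell in PBS versus Normoxic, where 4.31% of all tested genes were higher, and the list's median log2 fold change was 0.80. Gel versus Normoxic had 1 rise, where 1.12% of all tested genes were higher. In Gel versus PBS edgeR called 0, with 12 of 14 log2 fold changes negative and a median of -0.27. Cx3cr1 (Entrez 13051), the fractalkine receptor of microglia, had 9.36, 10.1 and 11.98 CPM in Gel 1 to 3, 10.8, 11.7 and 12.9 CPM in PBS 1 to 3, and 6.72, 4.95 and 5.45 CPM in Normoxic 1 to 3. All OIR libraries exceeded all Normoxic libraries, opposite in order to its ligand Cx3cl1. It rose 2.09-fold in PBS versus Normoxic (log2 fold change 1.06 ± 0.16, edgeR adjusted p = 0.00413, called in all 16 alternatives). In Gel versus Normoxic it rose 1.85-fold (0.89 ± 0.16, edgeR adjusted p = 0.0276), a call that ended without any 1 Normoxic library, Gel 2 or Gel 3 (edgeR adjusted p up to 0.15). Of the 11 microglia markers, 7 rose in PBS versus Normoxic and 5 in Gel versus Normoxic, against 4.31% and 1.12% of all tested genes. Their summed levels are given above, and their part in the Cx3cr1 increase was not tested.

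Of the integrin chains that grip ICAM-1, Itgb2 and Itgam rose in PBS versus Normoxic. Itgb2, the shared beta chain of LFA-1 and Mac-1, had 2.12, 1.79 and 2.34 CPM in Gel 1 to 3, 4.14, 1.91 and 3.57 CPM in PBS 1 to 3, and 0.818, 0.308 and 0.817 CPM in Normoxic 1 to 3 (log2 fold change of PBS versus Normoxic 2.33 ± 0.41, edgeR adjusted p = 0.00753). Gel lay wholly above Normoxic and overlapped PBS through PBS 2. Itgam, the alpha chain of Mac-1 and a marker of myeloid cells, averaged 4.65 ± 1.17 CPM in Gel, 6.13 ± 0.529 CPM in PBS and 1.86 ± 0.889 CPM in Normoxic, and rose in PBS versus Normoxic (1.73 ± 0.32, edgeR adjusted p = 0.00934, up to 0.0544 without Normoxic 1 or Normoxic 2, which ended the call). Itgal, the alpha chain of LFA-1, had 54 counts in Gel, 54 in PBS and 40 in Normoxic over 3 libraries each, and missed the threshold (PBS versus Normoxic 0.40, edgeR adjusted p = 0.657). Itgax, the dendritic and activated myeloid integrin, which was named after its values were seen, had 4, 20 and 5 counts in Gel, 25, 13 and 32 in PBS, and 2, 0 and 5 in Normoxic. No Normoxic library of Itgax reached the filter limit, and entry on such terms favours a difference. Its call in PBS versus Normoxic (edgeR adjusted p = 0.0476) ended without any 1 of 6 libraries (Normoxic 1, Normoxic 2, Normoxic 3, PBS 1, PBS 3 or Gel 3) and reached 0.164.

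For the partners of VCAM-1, Itgb1, the beta chain of VLA-4 that many cell types share, averaged 77.4 CPM in Gel, 94.6 CPM in PBS and 58.4 CPM in Normoxic and rose in PBS versus Normoxic (0.71 ± 0.14, edgeR adjusted p = 0.0115, up to 0.0627 without Normoxic 2 or Normoxic 3, which ended the call). Itga4, the alpha chain that gives VLA-4 its specificity, averaged 9.12 CPM in Gel, 9.68 CPM in PBS and 11.1 CPM in Normoxic (PBS versus Normoxic -0.19 ± 0.15, edgeR adjusted p = 0.48). Selplg, the P-selectin ligand, averaged 8.29 ± 2.03 CPM in Gel, 9.07 ± 2.57 CPM in PBS and 5.50 ± 1.25 CPM in Normoxic, with overlap (PBS versus Normoxic 0.73, edgeR adjusted p = 0.149).

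Among the chemokine receptors, Cxcr4, the signalling receptor of Cxcl12, had 2.39, 4.91 and 4.60 CPM in Gel 1 to 3, 6.18, 5.01 and 7.12 CPM in PBS 1 to 3, and 3.38, 3.29 and 3.76 CPM in Normoxic 1 to 3. PBS lay above both other groups without overlap, yet the difference from Normoxic missed the threshold (0.83 ± 0.27, edgeR adjusted p = 0.106), except by DESeq2 and without Gel 1 (adjusted p between 0.0351 and 0.285 over the alternatives). Ackr3, the scavenging receptor of Cxcl12, averaged 3.37 ± 0.812 CPM in Gel, 5.33 ± 1.67 CPM in PBS and 3.42 ± 1.48 CPM in Normoxic (PBS versus Normoxic 0.65, edgeR adjusted p = 0.303). Ccr1, a receptor of Ccl3, had 3, 7 and 4 counts in Gel, 2, 7 and 13 in PBS, and 0, 4 and 1 in Normoxic, too few for the test. Ccr2, the receptor of Ccl2, had 0, 0 and 4 counts in Gel, 7, 1 and 0 in PBS, and 0 in each Normoxic library. Its 7 counts in PBS 1 fell in the same library that held most of the Ccl2. Cxcr3 and Cxcr6, the receptors of Cxcl10 and Cxcl16, had at most 2 counts in any library.

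**Figure D3:**
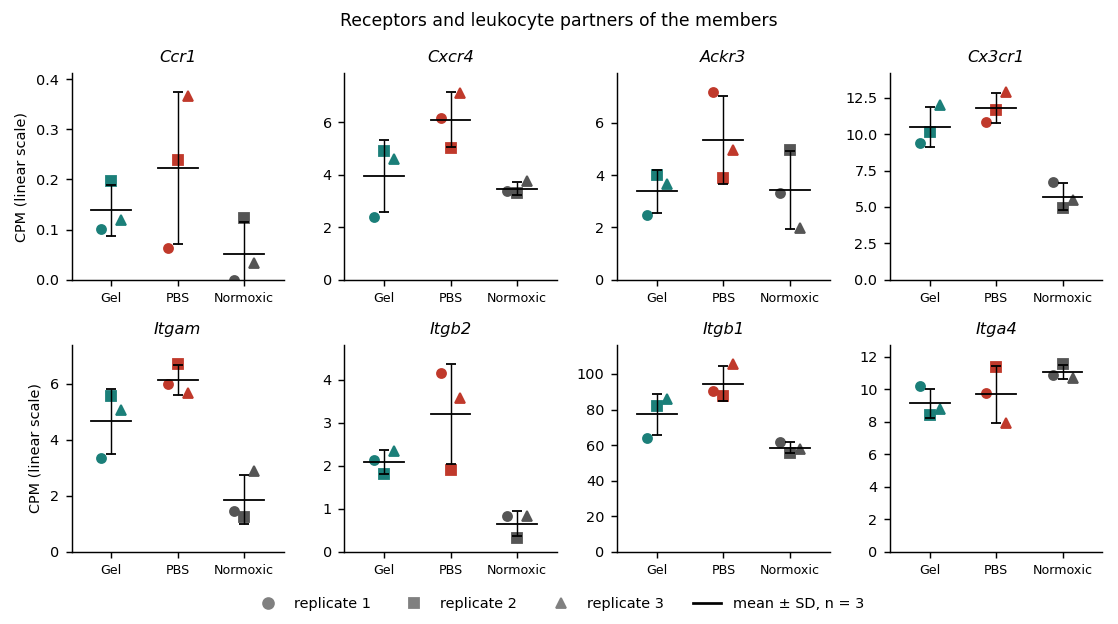
CPM of 8 receptors and integrin partners in each library (linear axis, CPM), with Gel left of PBS and Normoxic; symbols are replicates, horizontal lines means and bars SD (n = 3, cut at 0). Cx3cr1, Itgam, Itgb2 and Itgb1 lie above the Normoxic range in all Gel and PBS libraries, while Ackr3 overlaps between all groups and Itga4 in Gel lies below Normoxic and overlaps PBS.

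Leukocyte markers were read beside the receptors. The 10 monocyte and macrophage markers summed to 169 to 215 CPM in Gel, 195 to 346 CPM in PBS and 89.1 to 127 CPM in Normoxic, with Chil3 at 0 in Gel. Fn1, a matrix protein gene that many cell types express, made up 87.6% to 97.9% of these sums. The other 9 markers summed to 7.47 to 17.2 CPM in Gel, 12.4 to 24.1 CPM in PBS and 2.15 to 2.76 CPM in Normoxic. In PBS versus Normoxic 6 of the 8 tested were called higher, where 4.31% of all tested genes were. Of these 6, 4 (Plac8, Ms4a7, Mrc1 and Cd163) had no Normoxic library at the filter limit, which favours a difference. The 8 neutrophil markers in the table summed to 2.15 to 2.73 CPM in Gel, 1.50 to 2.87 CPM in PBS and 1.71 to 2.18 CPM in Normoxic. Csf3r, a growth factor receptor, made up 78.4% or more of each sum, and the other 7 markers summed to at most 0.237 CPM in Gel, 0.619 CPM in PBS and 0.154 CPM in Normoxic. Ly6g, Ngp and Camp were at 0 in Gel, Cxcr2 and Camp in PBS, and S100a8, Ly6g, Ngp and Cxcr2 in Normoxic. The 7 T cell and NK cell markers summed to 2.22 to 3.92 CPM in Gel, 2.62 to 4.28 CPM in PBS and 0.784 to 1.14 CPM in Normoxic. Cd8a, the alpha chain of CD8, made up 75% or more of each sum and was the 1 gene of this list with enough counts for the test. It rose in PBS versus Normoxic (log2 fold change 2.10 ± 0.33, edgeR adjusted p = 0.00468) and in Gel versus Normoxic (1.87 ± 0.33, edgeR adjusted p = 0.0231). Its partner Cd8b1 had at most 1 count in any library, Cd3d and Klrb1c were at 0 in Gel, Cd3g and Nkg7 at 0 in PBS, and Cd3g, Cd8b1, Nkg7 and Klrb1c at 0 in Normoxic. The leading genes of these lists were named after their values were seen, and the part of infiltrating cells in any member's value was not tested.

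Other adhesion molecules of the vessel wall were counted beside Icam1. Of 15 tested, 6 rose and 0 fell in PBS versus Normoxic, where 4.31% of all tested genes were higher. In Gel versus Normoxic 2 rose, against 1.12% of all tested genes. The list medians were 0.40 and 0.37, with 5 log2 fold changes negative in each. Alcam, named after its values were seen, lay wholly below Normoxic in PBS and in Gel. It had 14.2, 15.5 and 15.9 CPM in Gel 1 to 3. PBS 1 to 3 had 11.3, 15.8 and 13.7 CPM, and Normoxic 1 to 3 had 16.2, 17.9 and 19.9 CPM. Mcam, a junctional protein of endothelium and pericytes, had 25.4, 28.5 and 28.98 CPM in Gel 1 to 3, 51.5, 31.8 and 43.6 CPM in PBS 1 to 3, and 10.8, 13.8 and 17.2 CPM in Normoxic 1 to 3. The 3 groups did not overlap, with Gel between PBS and Normoxic. The 10 pericyte and smooth muscle markers, none at 0, summed to 226 to 288 CPM in Gel, 316 to 450 CPM in PBS and 139 to 165 CPM in Normoxic, in the same order, and 5 of 10 rose in PBS versus Normoxic. Their part in the Mcam values was not tested. Mcam rose 3.06-fold in PBS versus Normoxic (1.61 ± 0.21, edgeR adjusted p = 0.00165, called in all 16 alternatives) and 1.99-fold in Gel versus Normoxic (1.00 ± 0.21, edgeR adjusted p = 0.0434), a call that ended without any 1 Normoxic or Gel library (up to 0.195) and with limma-voom. Cdh5, the cadherin that seals endothelial junctions, averaged 24.8 ± 2.35 CPM in Gel, 24.9 ± 2.56 CPM in PBS and 13.8 ± 2.66 CPM in Normoxic. It rose in PBS versus Normoxic (0.87 ± 0.16, edgeR adjusted p = 0.0107, up to 0.0625 without Normoxic 1 or 2) and in Gel versus Normoxic (0.86 ± 0.16, edgeR adjusted p = 0.031, up to 0.17 without Normoxic 1, Normoxic 2, Gel 2 or Gel 3). Both left-out sets ended the call. Pecam1 rose in PBS versus Normoxic as well (0.88 ± 0.17, edgeR adjusted p = 0.014, ended without Normoxic 1 or 2), and so did Cd34 (1.30 ± 0.28) and F11r (0.75 ± 0.17), which were named after their values were seen and lost the call without any 1 Normoxic library. Cdh5 and Pecam1 are also endothelial markers of the list above, of which 8 rose and 1, the growth factor receptor Kdr, fell in PBS versus Normoxic, and 4 rose in Gel versus Normoxic.

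Glycam1, a mucin that presents sugars to L-selectin, had 11, 10 and 8 counts in Gel 1 to 3, 15, 31 and 40 counts in PBS 1 to 3, and 5, 0 and 1 counts in Normoxic 1 to 3. The groups did not overlap. No Normoxic library of Glycam1 reached the filter limit, and entry on such terms favours a difference. Its summed counts were 13.8 times as high in PBS as in Normoxic (95% counting interval 6.07 to 38.5; edgeR adjusted p = 0.0154), and the call ended without Normoxic 2 or Normoxic 3 (edgeR adjusted p up to 0.0796).

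The NF-kB pathway, which drives Icam1 and many chemokines in inflamed endothelium, had 5 of 17 tested genes higher and 0 lower in PBS versus Normoxic. Over all tested genes 4.31% were higher there. The list median was 0.09, with 12 log2 fold changes positive and 5 negative. The CPM of 1 gene, Tnfaip3, lay wholly below Normoxic in PBS. Tnfaip3, named after its values were seen, had 214, 184 and 218 CPM in Gel 1 to 3. PBS 1 to 3 had 190, 182 and 179 CPM, and Normoxic 1 to 3 had 215, 217 and 216 CPM. Tnfrsf1a, the main receptor of tumour necrosis factor, had 19.0, 20.0 and 18.4 CPM in Gel 1 to 3, 36.1, 25.7 and 23.2 CPM in PBS 1 to 3, and 9.65, 9.54 and 9.08 CPM in Normoxic 1 to 3. No library of one group overlapped another group. It rose 3.02-fold in PBS versus Normoxic (1.60 ± 0.16, edgeR adjusted p = 0.00051) and, as the list's 1 call in Gel versus Normoxic, 2.05-fold there (1.03 ± 0.16, edgeR adjusted p = 0.0103). In Gel versus Normoxic 1.12% of all tested genes were higher. The Tnfrsf1a call in that comparison ended without any 1 Normoxic library or Gel 2 (edgeR adjusted p up to 0.0721). Bcl3, an atypical inhibitor that partners with NF-kB in the nucleus, had 59, 29 and 74 counts in Gel 1 to 3, 519, 245 and 69 counts in PBS 1 to 3, and 13, 20 and 10 counts in Normoxic 1 to 3. PBS varied widely and PBS 3 fell inside the Gel range. Bcl3 rose in PBS versus Normoxic (4.25 ± 0.71, edgeR adjusted p = 0.00608), except with limma-voom (adjusted p = 0.0822). Nfkbia, the inhibitor that NF-kB itself induces, rose in PBS versus Normoxic (0.70 ± 0.14, edgeR adjusted p = 0.0148, up to 0.0744 without any 1 Normoxic library, each of which ended the call). Myd88, the adaptor of Toll-like receptors, rose too (0.69 ± 0.15, edgeR adjusted p = 0.0202), and lost the call without any 1 Normoxic library, without PBS 1 and with the length trend removed (up to 0.0892). Relb, named after its values were seen, was the fifth (0.76 ± 0.19, edgeR adjusted p = 0.0377) and was called in 5 of 16 alternatives.

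Among proteases that release or cut the members, edgeR called 0 of 6 in each of the 3 comparisons. Adam10, which sheds Cxcl16 and Cx3cl1, averaged 48.1 ± 4.30 CPM in Gel, 47.3 ± 3.84 CPM in PBS and 40.1 ± 3.54 CPM in Normoxic (PBS versus Normoxic 0.25 ± 0.11, edgeR adjusted p = 0.205). Adam17, the inducible sheddase, averaged 23.4 ± 0.640 CPM in Gel, 23.5 ± 2.84 CPM in PBS and 20.9 ± 1.77 CPM in Normoxic (0.17 ± 0.11, edgeR adjusted p = 0.4). Dpp4, which clips and inactivates Cxcl12 and Cxcl10, averaged 1.04 ± 0.183 CPM in Gel, 0.860 ± 0.206 CPM in PBS and 1.58 ± 0.307 CPM in Normoxic (PBS versus Normoxic -0.86 ± 0.32, edgeR adjusted p = 0.154). The CPM of Dpp4 in PBS lay below Normoxic without overlap, and that of Adam10 lay above it in PBS and in Gel. Over all tested genes, 14.1% lay wholly below and 14.9% wholly above in PBS versus Normoxic. In Gel versus Normoxic, 2 of the 6 proteases lay wholly above and 1 wholly below, against 11.1% and 12.8% of all tested genes.

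**Figure D4:**
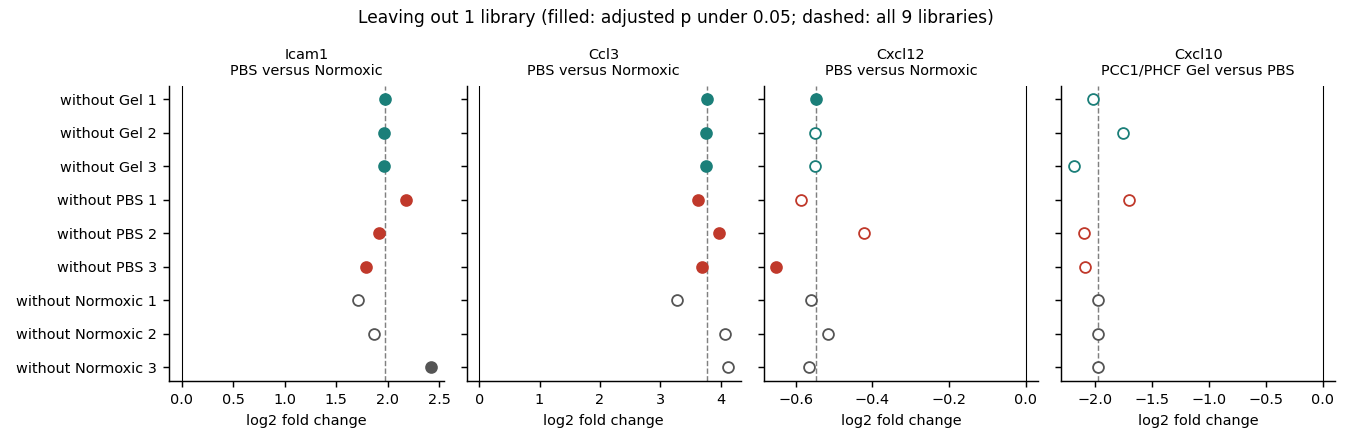
Log2 fold change (horizontal axis, linear in log2 units) of Icam1, Ccl3 and Cxcl12 in PBS versus Normoxic and of Cxcl10 in Gel versus PBS, each refitted without 1 library (rows); filled points have an edgeR adjusted p under 0.05 and the dashed line is the value with all 9 libraries. No left-out library turned the sign of any of the 4; Icam1 lost its call without Normoxic 1 or 2, Ccl3 without any 1 Normoxic library, and Cxcl10 ran from -2.19 to -1.71 with no call.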

How the data were processed

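Bulk RNA sequencing of mouse retina was used, 9 libraries in 3 groups taken from the sample labels. The deposited count table holds whole-number counts per gene and library. In the deposited FPKM table each value is the count over library total and a single length per gene (relative spread at most 2.9e-10), and served for length and for levels per length. The submitters' processing notes name GRCm39 as the build and list DESeq2 1.4.5, RSEM 1.3.1 and Bowtie2 without roles. The sources used here do not say whether the counts are rounded estimates or whether counting used strand.

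Counts were analysed in R 4.3.3 with edgeR 4.0.16: filterByExpr (minimum count 10), TMM scaling, and the quasi-likelihood F test on the 9 libraries together, with no term but group. Benjamini-Hochberg adjustment ran over all 17362 kept genes, with a threshold of 0.05. Each standard error is the size of the log2 fold change over the root of F, and 95% intervals use the t distribution. CPM are counts divided by the library total. Ratios of summed counts have exact conditional binomial intervals. These ratio intervals and the floor of 3 counts cover counting error only. The intervals of log2 fold changes also include the spread between libraries. The test was tried on simulated counts.

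The members and the other gene lists were chosen with earlier results of these data known. All members are named, and of each other list the receptors above and up to 4 genes with the smallest p in PBS versus Normoxic, plus those said to be named later. Alternatives were DESeq2 1.42.0, limma 3.58.1 (voom), DESeq2 size factors, no filter, only the groups compared, a replicate block, removal of the length trend (loess span 0.3) and each library left out. Protein sequences were not used here. Values of 1 gene of the receptor list are not reported here.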

Additional observations from a re-analysis of the deposited data

How the results depend on the processing

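Each of the 7 tested members was refitted under other settings, 334 values in all: 300 kept direction and side of the threshold, 9 lost a call, 7 gained one and 18 changed sign. The cause of these changes was not tested. All sign changes but 1 concern values near 0, and the other is Cxcl10 in Gel versus Normoxic. In Gel versus PBS, Cxcl16 was 0.0046 with DESeq2 size factors and with DESeq2, 0.0052 with no filter, 0.0102 with limma-voom, 0.00047 with only the groups compared, 0.0057 with the replicate block and 0.11 with the length trend removed, and ran from -0.12 to 0.16 with 1 library left out. Likewise Cx3cl1 ran from -0.072 to 0.012 and Icam1 from -0.11 to 0.27. In PBS versus Normoxic, Cxcl16 was -0.082 with the length trend removed and ran from -0.080 to 0.20 with 1 library left out. Cxcl10 in Gel versus Normoxic, -0.92 with all libraries, ran from -1.36 to 0.0021 (without Normoxic 3). For 592 values of other named genes, 63 lost and 8 gained a call, and 0 changed sign.

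Counts of calls depended on the method. In PBS versus Normoxic, DESeq2 called 1936 genes (60.1% higher, against 67.9% with edgeR), and leaving out 1 library gave 455 to 1184. Members called were 1 with only the groups compared and 0 to 3 with 1 library left out. In Gel versus PBS, no filter gave 24 genes, DESeq2 64, the length trend removed 3 and 1 library left out 0 to 12, and no alternative called a member. In Gel versus Normoxic, no filter gave 389 genes, DESeq2 854, only the groups compared 643, the length trend removed 436 and 1 library left out 47 to 735. Members called there were 2 with no filter, with DESeq2 and with only the groups compared, and 0 to 2 with 1 library left out.

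With the replicate number as a block, edgeR called 1050 genes in PBS versus Normoxic, 0 for Gel against PBS and 227 in Gel versus Normoxic, and 2, 0 and 1 members. The block added a call of Selplg (adjusted p = 0.037) and ended those of Itgax and Relb, and changed no other call of a named gene. Same-numbered libraries correlated between -0.209 (Gel 2 with PBS 2) and 0.362 in their deviations from the group means. Against PBS, Gel 1 and Gel 3 correlated best with their own number (0.326 and 0.362), and Gel 2 with PBS 3 (0.262). These deviations also varied with gene length, as given above, so the correlations cannot tell whether the numbers pair the samples. At this depth the limit was low counts: Ccl2, Ccl4 and Selp could not be tested in the fit with the filter.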

Other observations

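Of 25 other chemokines in the table, 9 had enough counts for the test, and edgeR called 0 in each of the 3 comparisons. Of the 4 refitted (Ccl9, Ccl12, Cxcl14 and Pf4), Ccl12 and Pf4 were called in PBS versus Normoxic by DESeq2 and by edgeR with no filter, and Ccl12 also without Normoxic 2. Cxcl14, a constitutive chemokine of epithelia and neurons, averaged 86.7 ± 13.5 CPM (SD, n = 3 in each group) in Gel, 74.5 ± 8.82 CPM in PBS and 93.3 ± 8.56 CPM in Normoxic. Its CPM in PBS lay below Normoxic without overlap (log2 fold change -0.32 ± 0.14, edgeR adjusted p = 0.234). Pf4, a chemokine of platelets and of some macrophages, had 1, 12 and 18 counts in Gel 1 to 3, 22, 16 and 55 counts in PBS 1 to 3, and 1, 9 and 0 counts in Normoxic 1 to 3 (PBS versus Normoxic 3.11 ± 0.97, edgeR adjusted p = 0.0889). No Normoxic library of Pf4 reached the filter limit. By CPM, PBS lay wholly above the other groups, by a narrow margin over Gel 3, and Gel overlapped Normoxic.

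The spread of single chemokines over the PBS libraries differed from gene to gene. Ccl11 (eotaxin) had 4, 0 and 0 counts in Gel 1 to 3, 24, 0 and 1 counts in PBS 1 to 3, and 0 in each Normoxic library, so PBS 1 held 96% of the PBS counts. Ccl7, a monocyte attractant, had 1, 0 and 0 counts in Gel, 8, 1 and 1 in PBS and 0 in each Normoxic library, with 80% of the PBS counts in PBS 1. Ccl12, a mouse relative of Ccl2, had 12, 20 and 12 counts in Gel, 52, 24 and 31 in PBS and 6, 18 and 3 in Normoxic, with 48.6% in PBS 1 (PBS versus Normoxic 1.95 ± 0.56, edgeR adjusted p = 0.07). Ccl5, an attractant of T cells and monocytes, had 4, 1 and 13 counts in Gel, 11, 3 and 9 in PBS and 2, 0 and 2 in Normoxic, and Ccl6 had 7, 7 and 40 counts in PBS 1 to 3, most in PBS 3. Ccl5, Ccl6, Ccl7 and Ccl11 were named after their values were seen.

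Sele, the endothelial E-selectin, had 4, 0 and 3 counts in Gel, 3, 0 and 7 in PBS and 0 in each Normoxic library. It was named after its values were seen. Of the 10 members, Normoxic 3 was the highest Normoxic library for 6 (Ccl2, Ccl3, Cxcl10, Cx3cl1, Icam1 and Vcam1), PBS 1 the highest PBS library for 5, and Gel 3 the highest Gel library for 6. Groups of 3 libraries are too small to test whether 1 stands apart.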
